A study of Homo sapiens with 6 samples.

Results

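Accessible regions lying over 500 kb from the gene start they were named for were described in A375, a long-established line of human melanoma cells. They were chosen by 2 values in the deposited tables: a smallest distance to a named gene start over 500 kb, and a mean signal of at least 50 over all 6 libraries. Neither their distance nor their mean signal is therefore a finding. Of 226920 regions in the tables, 11878 lay over 500 kb from the named start, and 7553 of these had too little signal. That left 4325 regions, or 1.91% of all regions and 4.59% of the 94166 with a mean signal of at least 50. These regions, called distal regions from here on, carried 694 gene names, were all 501 bases wide and held 2.69% of the summed mean signal. Just inside the distance limit lay regions named for SPATA31D1 (500.1 kb) and RYR2 (500.3 kb), and just outside it those of TSN (499.786 kb) and KCNQ5 (499.848 kb). Just inside the signal limit were regions of NMBR and SLC39A10 (50.02 and 50.03), and just outside it those of ERBB4 (49.97) and ARAP2 (49.98).

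The assay was ATAC-seq, which counts insertions of the transposase Tn5 into open chromatin. Cells were given recombinant HMGA1 for 2 h (2 libraries) or for 18 h (2 libraries), or were left untreated as mock (2 libraries). Per the labels, cells were frozen in a medium with DMSO after treatment, and thawed cells were given DNase before nuclei were made. They name no dose and no control protein, and describe the libraries within a group as biological replicates, without saying whether the cultures were separate. The p-values therefore measure only the spread between these libraries. All 3 comparisons used the same 6 libraries and share groups with each other. The depth of each library is unknown because the tables hold no value per library.

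HMGA1 is a small protein of chromatin that binds stretches of A/T bases through short motifs called AT hooks, and the series asks what its uptake does in melanoma cells. Open chromatin far from any promoter often marks enhancers, which can act on a gene over long distances along the folded chromosome. Developmental regulators and cell adhesion genes are often flanked by long stretches with few genes, in which many such elements lie. The name attached to a region here is that of the assigned gene start in the deposited tables and does not say which gene the region acts on.

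The distal regions were not, as a group, in gene deserts. With RefSeq gene spans on GRCh38.p14, 1238 of the 4325 (28.6%) lay inside the span of the very gene they were named for, at a long distance from its annotated start. A further 50 (1.16%) lay inside another protein-coding gene, 967 (22.4%) inside a non-coding or pseudogene span only, and 2070 (47.9%) outside every gene span. An end of some RefSeq gene was within 100 kb of 3672 of the 4325, and the median distance to the nearest end was 26.8 kb. Only 16 distal regions had no RefSeq gene end within 500 kb; they were named for EMB (6), AGA (5), SPIDR, WSB1 and ZNF33B (1 each) and for a clone-based name (2). Of the 16, 0 were called by the authors' DESeq2 test in any comparison, and 0 had an unadjusted p under 0.05.

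Distal regions over a RefSeq transcript start show how mixed their surroundings are. A whole window of 250 bases before to 50 bases after a RefSeq start lay inside 63 of them, and 17 of these 68 windows belonged to the gene named in the table. Of the 68, 5 are printed here, 5′ to 3′ on the strand of the transcript, from RefSeq on GRCh38.p14, with A/T runs of 6 or more bases in capitals. The first 2 are those in regions called in a comparison, both at uncharacterised genes. They are LOC105375267 (chr7:46969412-46969711, plus strand) inside a region named for TNS3, and LOC107984370 (chr11:15843495-15843794, plus strand) inside a region named for SOX6. The other 3 are internal starts of long genes in uncalled regions, shown as examples and not as typical uncalled windows: ROBO1, a receptor in axon guidance (chr3:79019410-79019709, minus strand), RABGAP1L (chr1:174799488-174799787, plus strand) and NRXN3, a synaptic adhesion gene (chr14:79279130-79279429, plus strand).
LOC105375267: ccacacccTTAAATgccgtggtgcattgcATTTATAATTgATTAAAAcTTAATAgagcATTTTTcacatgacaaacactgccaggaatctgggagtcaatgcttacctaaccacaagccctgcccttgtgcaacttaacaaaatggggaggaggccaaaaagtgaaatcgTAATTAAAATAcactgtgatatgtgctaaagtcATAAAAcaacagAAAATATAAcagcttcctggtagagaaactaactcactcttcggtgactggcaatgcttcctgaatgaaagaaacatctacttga
LOC107984370: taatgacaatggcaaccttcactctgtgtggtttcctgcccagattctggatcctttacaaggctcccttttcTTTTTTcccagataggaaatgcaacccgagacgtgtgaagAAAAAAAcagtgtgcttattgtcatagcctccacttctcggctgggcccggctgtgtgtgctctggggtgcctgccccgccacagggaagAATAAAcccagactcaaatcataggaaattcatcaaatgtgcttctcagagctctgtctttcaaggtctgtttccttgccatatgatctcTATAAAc
ROBO1: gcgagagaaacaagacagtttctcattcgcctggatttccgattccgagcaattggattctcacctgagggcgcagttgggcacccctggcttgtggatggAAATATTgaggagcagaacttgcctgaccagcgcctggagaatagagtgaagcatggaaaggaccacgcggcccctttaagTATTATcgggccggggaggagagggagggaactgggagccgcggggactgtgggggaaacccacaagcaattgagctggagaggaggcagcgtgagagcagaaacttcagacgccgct
RABGAP1L: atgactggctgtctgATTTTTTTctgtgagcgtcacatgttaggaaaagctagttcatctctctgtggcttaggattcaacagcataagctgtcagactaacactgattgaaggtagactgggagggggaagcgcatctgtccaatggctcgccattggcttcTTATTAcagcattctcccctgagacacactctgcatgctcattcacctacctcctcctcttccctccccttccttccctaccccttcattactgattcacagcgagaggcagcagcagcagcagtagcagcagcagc
NRXN3: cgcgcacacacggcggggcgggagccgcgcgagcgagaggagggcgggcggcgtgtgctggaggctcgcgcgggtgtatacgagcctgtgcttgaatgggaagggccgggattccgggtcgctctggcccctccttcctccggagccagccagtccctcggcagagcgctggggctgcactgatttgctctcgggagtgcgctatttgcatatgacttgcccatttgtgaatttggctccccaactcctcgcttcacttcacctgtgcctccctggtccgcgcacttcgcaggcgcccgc

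The LOC105375267 window was 61% A/T with 8 runs, the longest of 11 bases, and the LOC107984370 window was 53% A/T with 4 runs, the longest of 7. The windows of RABGAP1L, ROBO1 and NRXN3 were 49.7%, 43.3% and 33% A/T, with 2, 2 and 0 runs. Other uncalled regions held windows as rich in A/T as the called ones. Among them were LINC02429 (64.3%, 6 runs), LOC105369165 (63.7%, 9 runs) and an internal start of ANK3 (54%, 6 runs). With only 2 windows in called regions, no link between A/T content and calls can be read. Over all 68 windows in distal regions the median was 45.2% A/T and 39 (57.4%) held a run, against 41.3% A/T and 61.2% of all 35116 RefSeq windows of this length. The other motif searched, TGANTCA on both strands, gives letters that AP-1 factors bind, and it cannot hold an A/T run of 6. It was found in 16 of the 68 windows (23.5%), against 7.71% of all windows, a difference that was not tested. These matches are descriptions of letters and not binding sites.

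The TNS3-named region (chr7:46969246-46969747), around the LOC105375267 start, was higher at 2 h than in mock, at a log2 fold change of 0.89 ± 0.26 (SE; DESeq2 adjusted p = 0.0479, per the authors' deposited table). TNS3 encodes tensin 3, a focal adhesion protein, and its start is 612 kb away. The SOX6-named region (chr11:15843403-15843904) lies around the LOC107984370 start, 565 kb from the start of that developmental transcription factor gene. It was at -0.35 ± 0.15 at 2 h against mock (adjusted p = 0.310) and rose by 0.47 ± 0.15 at 18 h against 2 h (adjusted p = 0.0355) per the authors' deposited tables. The ROBO1, RABGAP1L and NRXN3 regions had mean signals of 559, 783 and 587, and their log2 fold changes at 2 h against mock were -0.10, 0.00 and 0.01 per the authors' deposited table.

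After 2 h, more distal regions had gained than lost accessibility. Of the 3889 distal regions that the authors' test covered, 66 were higher at 2 h than in mock (1.70%, under 57 gene names) and 14 lower (0.360%), by DESeq2 at an adjusted p under 0.05 in the deposited table of the authors. Over all 86137 regions tested there, 0.856% were called higher and 0.421% lower. The median gain was 0.79 on the log2 scale, or 1.73-fold, and 17 of the 66 were of at least 2-fold. The 14 losses had a median of -0.64, and 0 of them were of at least 2-fold, per the authors' deposited table. Most distal regions did not pass the test, and the median over those tested was -0.03, against -0.06 over all tested regions. With fold changes centred on the median tested region, 98 distal regions were higher and 7 lower (93.3% higher), in place of 66 and 14 (82.5% higher). All 66 gains and 7 of the 14 losses kept their call.

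**Figure D1:**
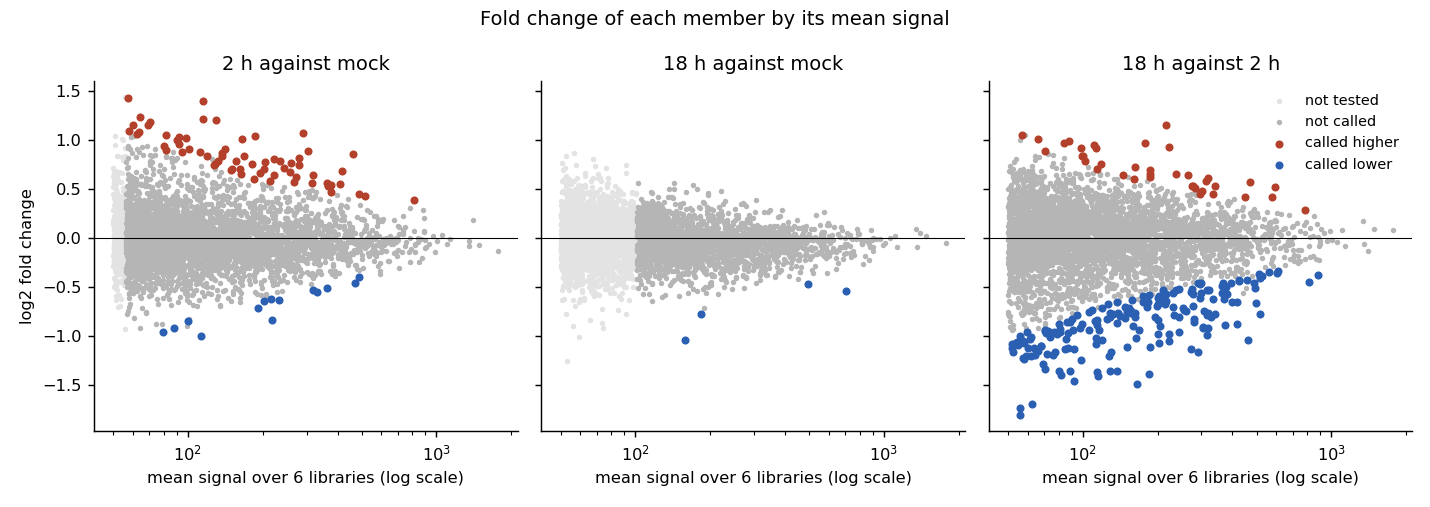
Log2 fold change (y axis) of each of the 4325 distal regions against its mean signal over the 6 libraries (x axis, log scale), for 2 h against mock, 18 h against mock and 18 h against 2 h; red and blue points are called higher and lower, and pale points were below the mean signal at which the authors' adjusted p begins. Red points outnumber blue ones at 2 h (66 against 14), only 4 points are coloured at 18 h against mock, and blue ones dominate at 18 h against 2 h (185 against 38).

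Among the 12 called distal regions with the highest gains at 2 h, 1 per gene name, that of CTNND2 had the smallest adjusted p but for TUSC1. This region inside the span of CTNND2, which encodes delta-catenin, a partner of cadherins (chr5:11069027-11069528), rose by 1.40 ± 0.22 (SE; adjusted p = 1.31e-06) per the authors' deposited table. Group levels were worked out from the deposited mean signal and fold changes and so carry no spread. They were 73.8 in mock, 194.5 at 2 h and 75.1 at 18 h for CTNND2, so the 2 h group stood apart and the 18 h group was close to mock. The CTNND2 start lies 835 kb away. The highest called gain was 546 kb from RIOK2, a kinase gene in ribosome maturation, at 1.43 ± 0.33 (adjusted p = 0.00318) per the authors' deposited table. It was a weak region, with levels of 35.5, 95.3 and 40.8 in mock, 2 h and 18 h. Its mock and 18 h levels were under the minimum mean signal of 50, which it met through its 2 h level. With a minimum of 100, 50 distal regions were higher at 2 h and 11 lower, in place of 66 and 14. The part of the signal limit in the leading gains was not tested.

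Both distal regions of SLITRK5, a synaptic membrane protein gene, that rose at 2 h lie on chromosome 13. They stood 1194 and 1785 kb from its start (chr13:88866145-88866646 and chr13:89457917-89458418). They rose by 1.20 ± 0.21 and 1.21 ± 0.23 (adjusted p = 1.38e-05 and 6.85e-05) per the authors' deposited table. The levels of the farther one were 82.1 in mock, 190.3 at 2 h and 71.8 at 18 h, and those of the nearer one 89.9, 206.2 and 91.8, so in both the 2 h group was the high one. On the same chromosome a region 1150 kb from DAOA (chr13:104315501-104316002) rose by 1.04 ± 0.17 (adjusted p = 5.26e-06) per the authors' deposited table. A region inside the glypican gene GPC6 (chr13:94310288-94310789) rose by 0.89 ± 0.14 (adjusted p = 1.74e-06) per the authors' deposited table. The region 1427 kb from STIM2, a calcium sensor of the endoplasmic reticulum (chr4:28287765-28288266), rose by 0.86 ± 0.12 (adjusted p = 5.44e-09) per the authors' deposited table. Its levels were 373.8 in mock, 676.8 at 2 h and 329.2 at 18 h. The DAOA, GPC6 and STIM2 regions were chosen after their values were seen.

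Other leading gains were at weaker regions with larger errors. MYC, the growth-controlling transcription factor, had a region 579 kb away that rose by 1.23 ± 0.31 (adjusted p = 0.0127) per the authors' deposited table. Its levels were 44.1 in mock, 103.4 at 2 h and 45.0 at 18 h. The ubiquitin ligase gene RNF144A (784 kb), the zinc finger gene ZNF608 (566 kb) and CITED2, a transcriptional co-regulator (687 kb), followed with 1.18 ± 0.30, 1.15 ± 0.31 and 1.15 ± 0.30 per the authors' deposited table. These 4 regions lay outside protein-coding spans. The region of NRG1, a ligand of ERBB receptors, was inside its own gene, 1127 kb from the start, and rose by 1.09 ± 0.31 per the authors' deposited table. In the MYC, ZNF608 and NRG1 regions the mock and 18 h levels were under the minimum mean signal of 50. These regions met that minimum through their 2 h levels. The cadherin gene CDH9 (1275 kb), CNTNAP2, a neurexin relative (1296 kb, inside its own span), and FAT4, a giant protocadherin (575 kb), rose by 1.08 ± 0.30, 1.06 ± 0.30 and 1.05 ± 0.27 per the authors' deposited table. TUSC1, at 1.07 ± 0.15, was the 1 of the 12 leading gains with a mean signal over 200 per the authors' deposited table.

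The 14 losses at 2 h (0.360% of tested distal regions, against 0.421% of all tested regions) carried only 13 gene names. Ephrin receptor genes, which encode guidance receptor kinases, gave 3 of the 12 leading ones. The region of EPHA7 (chr6:92231105-92231606, 1188 kb) stood at levels of 232.3 in mock, 130.1 at 2 h and 288.7 at 18 h, lowest at 2 h, where it fell by 0.84 ± 0.17 per the authors' deposited table. EPHA4 (chr2:220855208-220855709, 717 kb) fell by 0.96 ± 0.28 (adjusted p = 0.0443) and EPHA5 (chr4:65046537-65047038, 623 kb) by 0.64 ± 0.17 (adjusted p = 0.0189) per the authors' deposited table. The tested distal regions named for this family were not counted and no enrichment of it was tested. The EPHA4 call ended when fold changes were centred on the median tested region.

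The lowest value at 2 h belonged to MCTP2, a calcium-binding membrane protein gene (chr15:95170506-95171007, 939 kb), at -0.998 ± 0.24 (adjusted p = 0.00519) per the authors' deposited table. Its levels were 139.2 in mock, 69.7 at 2 h and 131.2 at 18 h. SOX5, a developmental transcription factor (chr12:24058007-24058508, 504 kb and inside its span), fell by 0.92 ± 0.27 (adjusted p = 0.0493) per the authors' deposited table. MAP3K7, the gene of the kinase TAK1 (chr6:91293380-91293881, 706 kb), fell by 0.85 ± 0.24 (adjusted p = 0.0406) per the authors' deposited table. Centring on the median tested region ended both calls. Regions of LRFN5, a synaptic adhesion gene (620 kb), DMD, the dystrophin gene (1789 kb, inside it), and the receptor kinase gene ALK (658 kb, inside it) fell by 0.72 ± 0.18, 0.64 ± 0.16 and 0.55 ± 0.14 per the authors' deposited table. BOD1L1 (591 kb), the co-repressor gene TLE1 (656 kb) and TENM2, a teneurin of cell contacts (1478 kb), closed the 12 with -0.53 ± 0.15, -0.51 ± 0.13 and -0.46 ± 0.12 per the authors' deposited table. The BOD1L1 and TENM2 calls ended under both ways of centring, and that of TLE1 when centring was done within bins of mean signal.

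**Figure D2:**
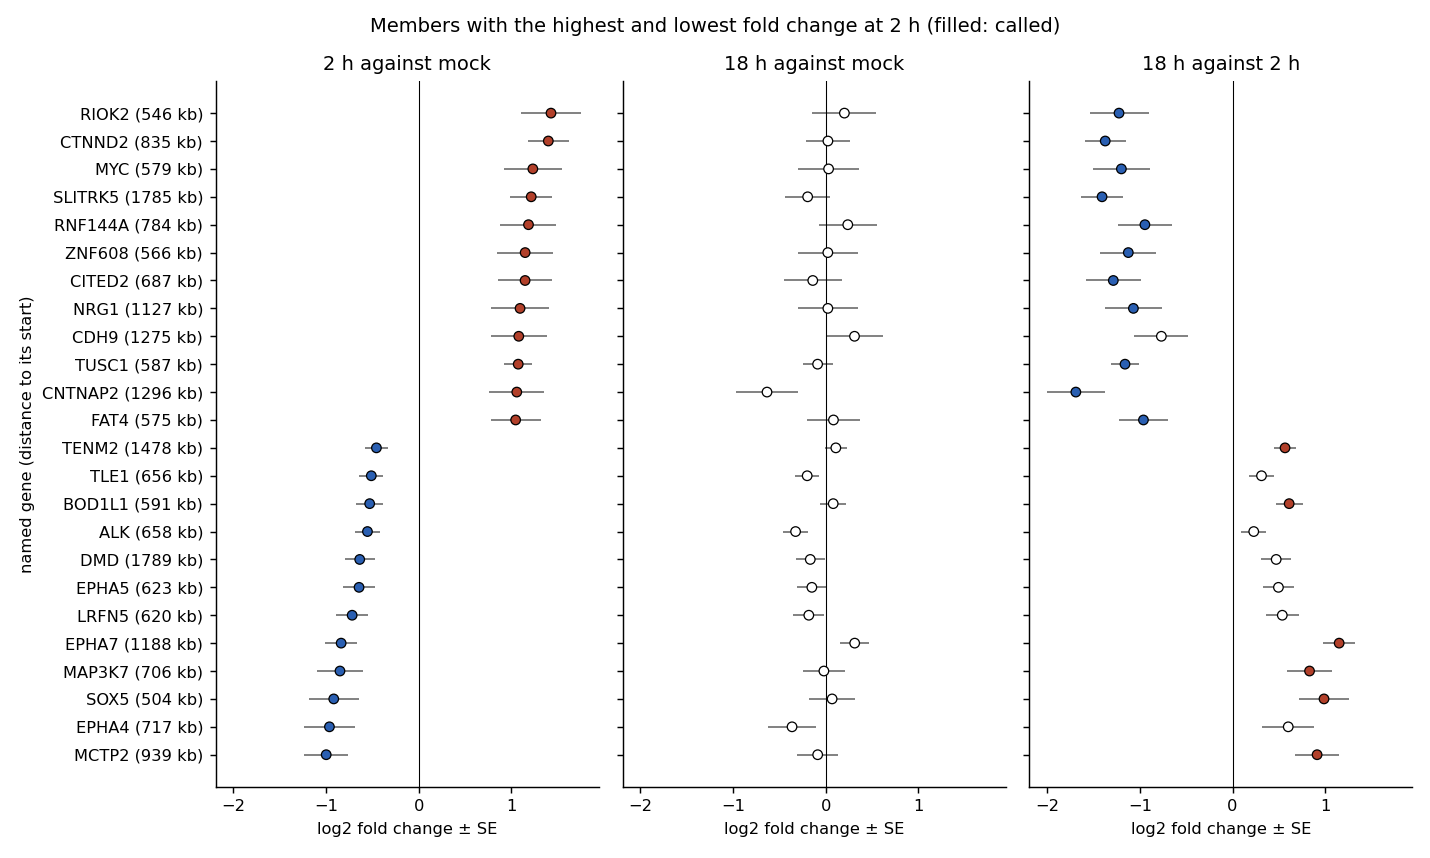
Log2 fold change with its standard error (x axis) of the 12 highest and 12 lowest called distal regions at 2 h, 1 per gene name (y axis, with the distance to the named start), in each of the 3 comparisons; filled points are called, red higher and blue lower, and open points are not called. The regions were selected on the left panel, where they run from 1.43 (RIOK2) to -0.998 (MCTP2). Of the 24, 12 were tested at 18 h against mock (3 of the gains and 9 of the losses) and 0 of these are called there, and 11 of the 12 gains are called lower at 18 h against 2 h. That last comparison uses the same 2 h libraries by which the gains were selected. The selection favours such calls, so their count is no separate finding.

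Few distal regions differed between 18 h and mock. Among 2161 tested, 0 were called higher and 4 lower (0.185%) per the authors' deposited table, by DESeq2 at an adjusted p under 0.05. Of all 55341 tested regions 0.00542% were called higher and 0.116% lower. At an unadjusted p under 0.05 the authors' deposited table had 31 of the 2161 higher and 113 lower. The same counts were not made over all tested regions, so this lean to losses cannot be called particular to distal regions. The median over the tested distal regions was -0.05, against -0.07 over all tested regions. The limit for testing was a mean signal of 101 here, against 56.2 for 2 h against mock, so 2164 distal regions had no adjusted p in this comparison.

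The lowest of the 4 was inside KAZN, which encodes a desmosome-associated protein (chr1:14704777-14705278, 812 kb from its start). It stood at levels of 199.4 in mock, 180.2 at 2 h and 97.0 at 18 h, so the 18 h group was the low one. It fell at 18 h against mock by 1.04 ± 0.20 (adjusted p = 0.00182) per the authors' deposited table. The USP24 region, named for a deubiquitinase gene (chr1:55726925-55727426, 512 kb), was the 1 distal region called against mock at both times, with opposite signs. It rose by 0.60 ± 0.18 at 2 h (adjusted p = 0.0477) and fell by 0.78 ± 0.19 at 18 h (adjusted p = 0.0390) per the authors' deposited tables. Its levels were 177.9 in mock, 270.1 at 2 h and 103.5 at 18 h. A region inside CLSTN2, a synaptic calsyntenin gene, 594 kb from its start, fell by 0.48 ± 0.12 at 18 h (adjusted p = 0.0462) per the authors' deposited table. Neither its call nor that of USP24 at 18 h against mock held when fold changes were centred.

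The remaining one, named for the kinesin gene KIF2B (717 kb), lies on MTCO1P40, a nuclear copy of a mitochondrial gene, so reads of mitochondrial DNA and of this copy may not be told apart. It fell by 0.54 ± 0.10 at 18 h (adjusted p = 0.00155) per the authors' deposited table, with levels of 845.9 in mock, 685.7 at 2 h and 582.0 at 18 h. Other distal regions on such copies were those of KCNJ3 and TLE4, at -0.51 ± 0.28 and 0.09 ± 0.28 per the authors' deposited table, both below the signal limit for testing. The part of mitochondrial reads in the KIF2B value was not tested.

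At 18 h against 2 h, 185 distal regions were lower (4.28%, under 134 gene names) and 38 higher (0.879%) per the authors' deposited table, by DESeq2 at an adjusted p under 0.05. All 4325 were tested in this comparison. Over all 108134 tested regions 2.98% were lower and 0.498% higher. The 185 losses had a median of -0.84 on the log2 scale, or 1.79-fold lower, with 56 of at least 2-fold. The 38 gains had a median of 0.65, with 3 of at least 2-fold, per the authors' deposited table. The median over all distal regions was 0.01, as it was over all tested regions. This comparison shares the 2 h libraries with the comparison at 2 h and the 18 h libraries with that at 18 h, so its values are no independent evidence of either.

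Of the 12 called regions that were lowest at 18 h against 2 h, 1 per gene name, the first was that of LCORL, a transcription factor gene (chr4:19029914-19030415, 1008 kb), at -1.81 ± 0.33 (adjusted p = 9.86e-06) per the authors' deposited table. Its levels were 37.5 in mock, 101.5 at 2 h and 29.0 at 18 h, and with a mean signal of 56.0 it was not tested at 2 h against mock. Its mock and 18 h levels were under the minimum mean signal of 50, so it entered the distal regions through its 2 h level. The part of that limit in the leading losses was not tested. TOX, a nuclear factor gene (547 kb), and CNTNAP2 came next, with -1.74 ± 0.35 and -1.69 ± 0.31 per the authors' deposited table. Then came the region 512 kb from IRS2, at -1.49 ± 0.20 per the authors' deposited table. The region 529 kb from SLITRK6 (chr13:85277654-85278155) fell by 1.46 ± 0.26 (adjusted p = 6.01e-06) per the authors' deposited table. The SLITRK5 region at 1785 kb fell by 1.41 ± 0.23 and that of CAMK1G, a calmodulin-dependent kinase gene (534 kb), by 1.40 ± 0.27 per the authors' deposited table. The USP24 and CTNND2 regions, described above, were at -1.38 ± 0.19 and -1.37 ± 0.22, and BANK1, a B-cell scaffold gene (534 kb), at -1.36 ± 0.27 per the authors' deposited table. SORCS3, a sorting receptor gene (chr10:105585723-105586224, 945 kb), fell by 1.36 ± 0.22 and TENM2 (chr5:167208819-167209320, 546 kb) by 1.35 ± 0.22 per the authors' deposited table. All 12 of these stood above their mock level at 2 h, as for SORCS3 with levels of 115.0 in mock, 193.5 at 2 h and 75.6 at 18 h. Picking regions by a low value against 2 h favours a high 2 h level, so this is no separate finding.

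The 38 regions higher at 18 h than at 2 h were led by EPHA7, at 1.15 ± 0.17 (adjusted p = 1.40e-08) per the authors' deposited table. CNTNAP5 (586 kb), the gasdermin gene GSDMC (935 kb) and SOX5 stood at 1.05 ± 0.32, 1.01 ± 0.29 and 0.99 ± 0.27 per the authors' deposited table. HPSE2, a heparanase relative (chr10:98488675-98489176, 747 kb, inside it), rose by 0.92 ± 0.16 (adjusted p = 4.67e-06) per the authors' deposited table. Its levels were 212.5 in mock, 156.3 at 2 h and 296.2 at 18 h, so the treated groups lay to either side of mock. RAPGEF2, an exchange factor for RAP GTPases (1216 kb), rose by 0.97 ± 0.19 (adjusted p = 6.10e-05) per the authors' deposited table, at levels of 169.7 in mock, 122.3 at 2 h and 239.5 at 18 h. The adhesion gene CADM2 (1088 kb), the transcription factor gene BCL11A (863 kb), INTU (1068 kb), MCTP2, SLITRK6 (878 kb) and SLITRK1 (1002 kb) had between 0.84 and 0.97 per the authors' deposited table. The call at SLITRK6 ended when fold changes were centred on the median tested region. CADM2, SLITRK6, HPSE2, CRIM1 and BRINP3 were among the names with called regions in both directions, at different places. For HPSE2 the lower one (chr10:98460752-98461253) stood at -0.49 ± 0.13 (adjusted p = 0.0112) per the authors' deposited table.

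Calls were spread over every kind of location. At 2 h against mock, 17 of 1107 tested distal regions inside their named gene were higher (1.54%) and 4 lower. Outside every gene span 31 of 1849 were higher (1.68%) and 5 lower, and inside non-coding or pseudogene spans 16 of 889 were higher (1.80%) and 5 lower, by the authors' deposited table. Inside another protein-coding gene 2 of 44 were higher (4.55%) and 0 lower. Over all distal regions 1.70% were higher and 0.360% lower. Lower at 18 h than at 2 h were 45 of 1238 regions inside the named gene (3.63%), 97 of 2070 outside every span (4.69%) and 40 of 967 in non-coding spans (4.14%), against 4.28% of all distal regions, per the authors' deposited table. Higher were 8, 22 and 8 of the same regions. Inside another protein-coding gene 3 of 50 were lower (6%) and 0 higher at 18 h against 2 h. Differences between locations were not tested. By distance, 36 of 1999 tested regions at 500 to 750 kb were higher at 2 h, 15 of 814 at 750 to 1000 kb, 14 of 961 at 1000 to 2000 kb and 1 of 115 beyond 2000 kb, per the authors' deposited table. The farthest distal regions, 4845, 4840 and 4786 kb from OR11H1, an olfactory receptor gene on chromosome 22, were not called.

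Set beside nearer regions with the same minimum signal, the distal ones had the largest share of gains at 2 h of the 5 classes. The share called higher at 2 h per the authors' deposited table was 1.70% for distal regions, 1.22% at 100 to 500 kb, 0.953% at 10 to 100 kb, 0.546% at 1 to 10 kb and 0.0715% under 1 kb. The share called lower did not follow that order: it was 0.360%, 0.603%, 0.483%, 0.308% and 0.0954% in the same classes of the authors' deposited table. Of distal regions, 4.28% were lower at 18 h than at 2 h, against 4.43%, 3.80%, 2.60% and 0.271% in the nearer classes of the authors' deposited table. Regions are not replicates and these differences between classes were not tested. Median mean signal also differed, at 101, 109, 114, 108 and 372 from the farthest class to the nearest. So did the median gap to the next region, at 5.33, 3.26, 2.35, 1.65 and 1.99 kb. The median log2 fold change at 2 h against mock ran in the same order as the share of gains. It was -0.030, -0.035, -0.043, -0.053 and -0.109 from the farthest class to the nearest. Median standard errors there were 0.230, 0.221, 0.217, 0.220 and 0.129. The part of any of these in the shares was not tested.

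**Figure D3:**
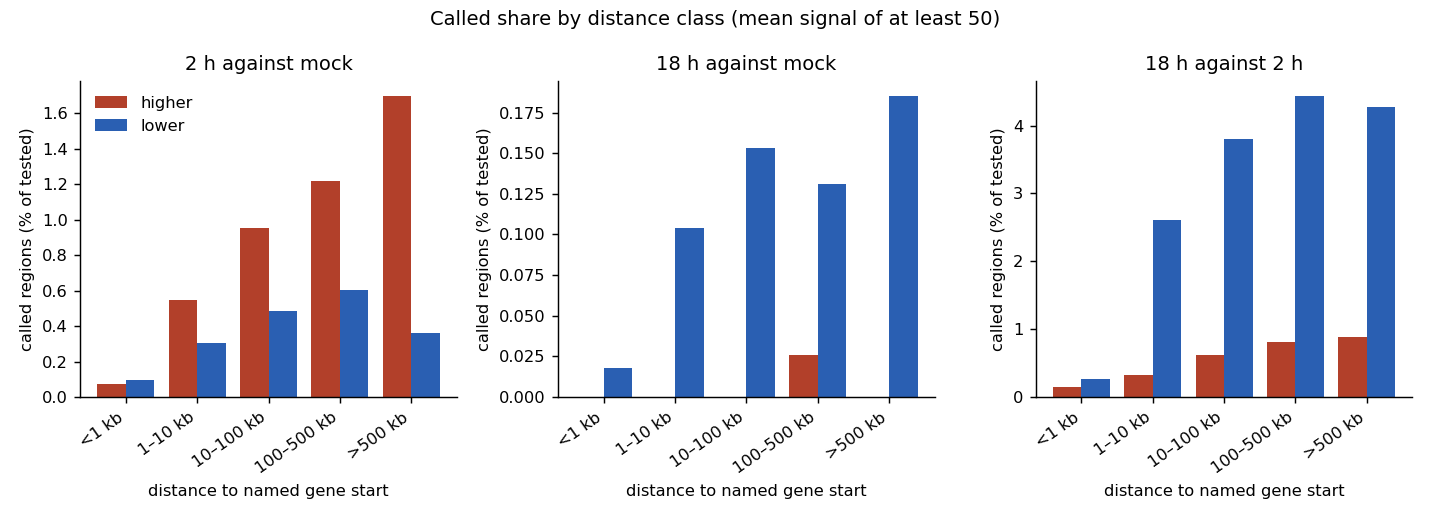
Share of tested regions called higher (red) and lower (blue), in % (y axis, its own scale in each panel), by distance to the named gene start (x axis) among regions with a mean signal of at least 50, for the 3 comparisons. The share of gains at 2 h reaches 1.70% in the class over 500 kb, and at 18 h against mock 0.185% of that class is lower and 0 regions are higher.

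Distal regions made up an unequal share of the chromosomes. They made up 12.7% of the regions with a mean signal of at least 50 on chromosome 13 (310 regions), 10.3% on chromosome 4 (432) and 9.48% on chromosome 21, but 0.990% on chromosome 17 (43) and 0.391% on chromosome 19 (14). On chromosome 13, 11 of 283 tested distal regions were higher at 2 h (3.89%, against 1.70% of all distal regions) per the authors' deposited table, a difference that was not tested. By gene name, the teneurin gene TENM3 had the most distal regions (58, of which 12 inside its span), and 0 of them were called in any comparison by DESeq2. At an unadjusted p under 0.05, 2 of its regions were higher and 5 lower at 2 h against mock, and 4 higher and 2 lower at 18 h against 2 h, per the authors' deposited tables. The glypican gene GPC5 had 42, with 2 higher at 2 h against mock and 4 lower at 18 h against 2 h per the authors' deposited tables. KAZN had 38, all inside its span, with 1 lower at 18 h against mock and 3 lower at 18 h against 2 h, per the authors' deposited tables. The defensin gene DEFB115 and the transcription factor gene ZFHX3 had 35 each. For DEFB115 0 were called, and for ZFHX3 1 was higher at 2 h and 3 were lower at 18 h against 2 h per the authors' deposited tables. The immunoglobulin-fold adhesion gene NTM had 32, with 1 higher at 2 h and 3 lower at 18 h against 2 h per the authors' deposited tables. The phosphodiesterase gene PDE4D had 32 with 0 called per the authors' deposited tables. At an unadjusted DESeq2 p under 0.05, 4 of its 15 regions tested at 18 h against mock were lower and 0 higher. At 2 h against mock 1 of 30 was higher and 2 lower. At 18 h against 2 h 1 of 32 was higher and 3 lower. Over all distal regions 1.70% were called higher at 2 h and 4.28% lower at 18 h against 2 h. A count of 0 for a single gene name therefore says little.

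**Figure D4:**
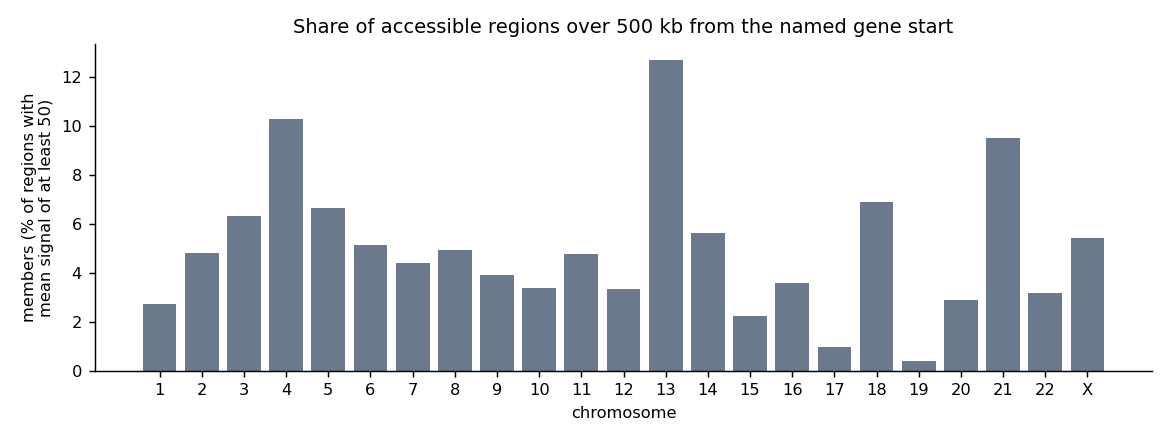
Share of regions with a mean signal of at least 50 that lie over 500 kb from the named gene start, in % (bars, y axis), for each chromosome shown (x axis). The bars are tallest at chromosomes 13 (12.7%) and 4 (10.3%) and shortest at 19 (0.391%) and 17 (0.990%).

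Of the 5 distal regions with the highest mean signal, 0 were called by DESeq2, and at an unadjusted p under 0.05 1 was higher and 1 lower at 2 h against mock. They were named for CH17-296N19.1 (mean signal 1773), OR11H1 (1482), NTM (1402), the cation channel gene TRPM3 (1354) and DEFB115 (1346). How reads with several matching places in the genome were treated is not given in the sources used here. Mean signal over all 4325 had quartiles of 67.6, 101 and 180, and distance a median of 737 kb with quartiles of 588 and 1041 kb.

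Called distal regions were mostly alone. Joining those within 100 kb of each other gave 202 groups from the 242 regions called in any comparison, of which 176 were single regions, 20 were pairs and 6 held 3 or more. In the CAAP1/TUSC1 run (chr9:26243639-26375942, 132 kb), between a caspase inhibitor gene and a tumour suppressor candidate, 7 of 11 distal regions were called, 4 higher at 2 h and 6 lower at 18 h against 2 h. Median log2 fold changes over the 11 were 0.40 at 2 h against mock, -0.10 at 18 h against mock and -0.78 at 18 h against 2 h per the authors' deposited tables. All 11 were above 0 at 2 h. Neighbouring regions share sequence surroundings and are not independent, and the runs were picked by their calls.

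The IRS2 run (chr13:109243277-109274591, 31.3 kb), named for an adapter of insulin receptor signalling, held 9 distal regions, of which 2 were higher at 2 h and 5 lower at 18 h against 2 h. Their medians were 0.42, -0.17 and -0.65 in the 3 comparisons of the authors' deposited tables. The USP24 run (chr1:55718782-55827785, 109 kb) had 3 of 6 higher at 2 h, 1 lower at 18 h against mock and 2 lower at 18 h against 2 h per the authors' deposited tables. Inside NTM (chr11:131977810-132065407) 1 of 8 was higher at 2 h and 3 were lower at 18 h against 2 h per the authors' deposited tables. In the PSAT1/TLE4 run (chr9:78858058-79023586, 166 kb) 0 of 8 were called at 2 h and 5 were lower at 18 h against 2 h, by the authors' deposited tables. The run inside SOX5 (chr12:24015645-24058508, 42.9 kb) went the other way, with 2 of 8 lower at 2 h and 2 higher at 18 h against 2 h. Its medians were -0.43, -0.09 and 0.27 per the authors' deposited tables. Both SOX5 losses at 2 h ended under either way of centring.

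**Figure D5:**
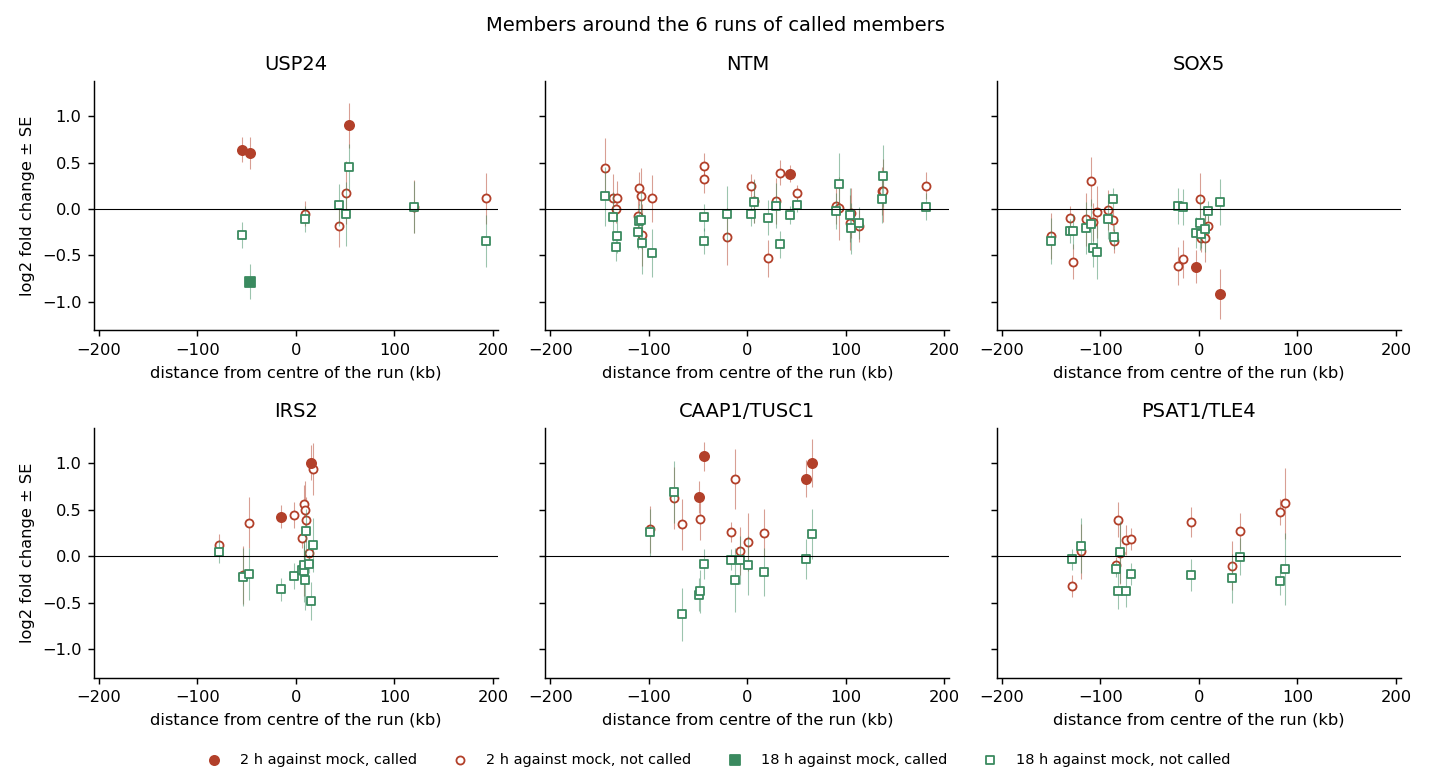
Log2 fold change with its standard error (y axis) of distal regions within 200 kb of the centre of each of the 6 runs (x axis, kb), for 2 h against mock (red circles) and 18 h against mock (green squares); filled symbols are called. Filled red circles lie above 0 in USP24, NTM, IRS2 and CAAP1/TUSC1 and below 0 in SOX5, 1 green square is filled (USP24, -0.78), and 0 symbols are filled in PSAT1/TLE4, whose calls were at 18 h against 2 h.

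Gene lists were described by counts, because they were drawn up with earlier results of these data known. No difference between a list and all distal regions was tested. The lists overlap, so the same region can be counted in several of them. Adhesion and axon guidance genes, which shape cell contacts, named 818 distal regions under 69 of 98 genes. At 2 h against mock 12 of 734 tested were higher (1.63%, against 1.70% of all distal regions) and 5 lower (0.681%, against 0.360%), with a median of -0.03. At 18 h against 2 h 12 of 818 were higher (1.47%, against 0.879%) and 26 lower (3.18%, against 4.28%), with a median of 0.03, per the authors' deposited tables. Developmental transcription factors named 215 under 32 of 153 genes. Of these, 3 of 199 were higher (1.51%) and 2 lower (1.01%) at 2 h, and 5 of 215 were higher (2.33%) and 7 lower (3.26%) at 18 h against 2 h, per the authors' deposited tables. A region inside ZFHX3, 844 kb from its start (chr16:73047092-73047593), rose by 0.71 ± 0.15 (adjusted p = 0.00133) at 2 h per the authors' deposited table. TBX3, a T-box factor gene, had a region at 721 kb (chr12:115405058-115405559) that fell by 1.35 ± 0.27 at 18 h against 2 h (adjusted p = 9.43e-05) per the authors' deposited tables.

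Secreted growth factors, matrix genes and their receptors named 141 distal regions under 21 of 115 genes. Of 126 tested at 2 h 4 were higher (3.17%, against 1.70% of all distal regions) and 0 lower, and of 141 at 18 h against 2 h 0 were higher and 16 lower (11.3%, against 4.28%), per the authors' deposited tables from DESeq2. The list also holds IRS1 and IRS2, adapters inside the cell, which gave 2 of the 4 gains (both IRS2) and 7 of the 16 losses (5 of IRS2, in the run of 31.3 kb, and 2 of IRS1). At an unadjusted p under 0.05 these were 15 higher and 5 lower at 2 h, and 5 higher and 27 lower at 18 h against 2 h. Over all distal regions they were 258 and 189 of 3889, and 242 and 457 of 4325. The median of the list at 18 h against 2 h was -0.08, against 0.01 over all tested regions. The region 678 kb from INHBA, an activin subunit gene (chr7:41027312-41027813, inside SUGCT), rose by 0.80 ± 0.16 (adjusted p = 0.000525) at 2 h per the authors' deposited table. It fell by 0.98 ± 0.16 (adjusted p = 1.19e-06) at 18 h against 2 h per the authors' deposited table, at levels of 184.4 in mock, 321.3 at 2 h and 162.4 at 18 h. A region 614 kb from IRS1, the relative of IRS2 (chr2:226185674-226186175), fell by 0.62 ± 0.13 (adjusted p = 0.000122) at 18 h against 2 h per the authors' deposited table.

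Over all distal regions 1.70% were higher at 2 h and 4.28% lower at 18 h against 2 h, and over all tested regions 0.856% and 2.98%. Ion channel and receptor genes named 136 distal regions under 27 of 75 genes. Of 122 tested at 2 h 1 was higher (0.820%) and 0 lower, and of 136 at 18 h against 2 h 1 was higher (0.735%) and 7 lower (5.15%), per the authors' deposited tables. The gain was inside KCNIP4, a potassium channel partner (chr4:21012953-21013454, 935 kb), at 0.81 ± 0.15 (adjusted p = 5.64e-05) per the authors' deposited table. Melanocyte and melanoma genes named 56 under 8 of 49 genes. At 2 h 1 of 52 was higher (1.92%), 916 kb from TFAP2A, and at 18 h against 2 h 0 of 56 were higher and 3 lower (5.36%), per the authors' deposited tables. The 3 were that of TFAP2A and those 1118 and 1129 kb from the N-cadherin gene CDH2, which stood at -0.81 ± 0.21 and -0.80 ± 0.19 per the authors' deposited table. TFAP2A is also in the list of developmental factors and CDH2 in that of adhesion genes, so these calls were counted there too. Cell cycle, survival and tumour genes named 99 under 13 of 55 genes. Of 90 tested at 2 h 4 were higher (4.44%) and 0 lower, and of 99 at 18 h against 2 h 0 were higher and 6 lower (6.06%), per the authors' deposited tables. The gains were those of MYC, which is also in the list of developmental factors, and FAT4 and a pair of neighbours at TUSC1 (chr9:26260226-26260727 and chr9:26265191-26265692). That pair lies in the CAAP1/TUSC1 run, which was picked by its calls. At 18 h against mock 0 regions of any of the 6 lists were called in either direction per the authors' deposited table, with 34 to 388 of each list tested. Over the 695 tested regions of any list, 12 were higher and 33 lower there at an unadjusted p under 0.05. Over all 2161 distal regions tested in that comparison, 31 were higher and 113 lower at the same limit. The region 500.5 kb from SOX2 had -0.50 ± 0.16 (p = 0.00177, adjusted p = 0.225) per the authors' deposited table.

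The label melanoma was checked at regions over gene starts, whose median mean signal was 389. Of 11 melanocyte and melanoma markers 6 had such a region: MITF (694), NGFR (376), EGFR (334), PMEL (298), SOX9 (224) and SOX10 (63.8), and none was listed over MLANA, TYR, DCT, TYRP1 or AXL. Of 6 markers each of immune, endothelial, keratinocyte and fibroblast cells, 1, 2, 1 and 1 had one, between 17.8 (CLDN5) and 210 (LYZ). Mean signal was over all libraries, so no difference between groups can be read from it.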

How the data were processed

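ATAC-seq was made from A375 cells in 6 libraries, 2 for each of 2 h, 18 h and mock. Per the submitters' processing notes, reads were demultiplexed with bcl2fastq 2.17, the build was hg38 and DESeq2 was used; the aligner, the peak caller and any shift of read ends for Tn5 are not given in the sources used here. Per the file headers, each of the 3 tables deposited by the authors gives a mean signal per region (normalised over libraries), a log2 fold change with its standard error, the Wald statistic (a score) and a p-value with its adjusted p. Of their columns 0 hold values per library, so the planned test of read counts gave way to the planned use of the authors' DESeq2 values. Subtracting the 2 deposited mock comparisons returned the third to within 1.02e-14, as 1 fit over 6 libraries gives.

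Region names were stripped of their numeric suffix, the smallest absolute distance was kept, and regions over 500 kb with a mean signal of at least 50 were taken. A region was called at a deposited adjusted p under 0.05; regions with an adjusted p of exactly 1 below a mean signal of 56.2 at 2 h and 101 at 18 h against mock, and of 41.7 between 18 h and 2 h, counted as not tested. Group levels solve the mean signal and both fold changes and carry no error. Coordinates are as deposited, and whether they count from 0 or 1 is not stated. The RefSeq table of GRCh38.p14 matched 677 of 694 gene names (4185 of 4325 regions); distance to a RefSeq gene was taken to either end of its span. Named regions were the 12 highest and 12 lowest called per comparison (1 per gene name), those with the most signal, distance or neighbours, those at the limits, and up to 4 called per gene list, or 2 where 0 were called; not all are printed. The members and lists were chosen with earlier results of these data known. The adjustment of p-values and the test after centring on the median tested region were checked on simulated fold changes. The other steps were not checked in this way. Python 3.11.15, pandas 2.3.3, numpy 2.4.6, scipy 1.17.1 and matplotlib 3.10.9 were used.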

Additional observations from a re-analysis of the deposited data

Results flagged for a closer look

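The difference between 18 h and 2 h was itself tested by the authors. By DESeq2 at an adjusted p under 0.05, 185 distal regions (4.28%) were lower and 38 (0.879%) higher at 18 h per the authors' deposited table. Over all 108134 tested regions 2.98% were lower and 0.498% higher. At 100 to 500 kb 4.43% were lower, so the share of losses was not particular to the distal regions. The USP24 region on chromosome 1 had a log2 fold change of -1.38 ± 0.19 (SE; adjusted p = 2.05e-10) between 18 h and 2 h per the authors' deposited table, and it was called on opposite sides of mock at the 2 times. Its call at 18 h against mock ended when fold changes were centred, and its call between 18 h and 2 h did not.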

How the results depend on the processing

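No paired analysis was possible because the deposited tables hold no value per library; leaving out replicates, a replicate block, other scalings of counts and edgeR were not run for the same reason. The 80 distal regions called at 2 h against mock became 191 with a distance limit of 250 kb, 18 with 1000 kb, 36 at an adjusted p under 0.01, 121 under 0.10 and 53 when p-values were adjusted over every region of the table, a change of how many regions or calls enter by construction. The 4 at 18 h against mock became 7 with 250 kb and 0 with 1000 kb, and 2 at an adjusted p under 0.01, with 1 region kept per run of neighbours under 10 kb apart, under both ways of centring, and when adjusted over every region or over those with a mean signal of at least 50. The 223 at 18 h against 2 h became 586 with 250 kb, 48 with 1000 kb and 124 under 0.01. Requiring that no RefSeq gene lay within 500 kb left 0 calls in each comparison. Centring over all tested regions at once, or separately by mean signal, gave 98 higher and 7 lower or 98 and 8 lower at 2 h, and 34 and 191 or 36 and 191 at 18 h against 2 h; all 185 losses at 18 h against 2 h kept their call, as did 34 or 36 of the 38 gains. The cause of the calls lost by centring was not tested. Median log2 fold changes moved by less than the median standard error of a region under each alternative run for them. That yardstick is wide for a median over many regions, so it cannot show that the medians were stable. With no RefSeq gene within 500 kb, the median at 18 h against mock went from -0.05 to 0.06 (11 regions tested). That at 18 h against 2 h went from 0.01 to 0.11 (16 regions tested). The unknown depth per library limits every value, and weak regions, such as those near a mean signal of 50, had no adjusted p against mock.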
